A study of Mus musculus with 8 samples.

Results

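The 41 genes described here encode the DNA replication machinery, from the proteins that mark replication origins to the factors that rebuild chromatin behind the fork. They were listed by their role in replication, with earlier results of these data known, and all 41 were found among the 47069 gene IDs of the deposited table and among the 12879 genes tested. The question was how the transcripts of these genes differed when TGFβ was present during T cell activation. RNA was sequenced from OT-I CD8+ T cells (genotype WT) of mouse lymph nodes, whose transgenic receptor recognises a peptide of ovalbumin. One group of 4 libraries was stimulated for 24 h with 10 nM SIITFEKL (OVA-T4), an altered peptide of lower affinity, together with 5 ng/ml recombinant TGFβ, and the other group of 4 libraries received OVA-T4 alone. The labels describe 4 biological replicates in each group. The unpaired p-values rest on the spread between these libraries. Those of fits paired by replicate number rest on the spread of the differences within a number. The study's methods name both OT-I and OT-I Rag1-/- mice without stating which gave these samples, and describe the mice of all experiments as matched for age and sex.

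Cells prepare to copy their genome by loading the Mcm2 to Mcm7 helicase onto origins, a step called licensing that is carried out by the origin recognition complex, Cdc6 and Cdt1 and restrained by geminin. At the start of S phase the kinase Cdc7 with its partner Dbf4, together with Cdc45 and the GINS complex, turns the loaded helicase into an active fork. Primase starts each new strand, polymerases epsilon and delta extend it with the sliding clamp Pcna, and RPA, Fen1, Lig1 and CAF-1 protect, join and repackage the DNA. Activated CD8 T cells divide within days of meeting antigen, and many genes of this machinery are known targets of E2F transcription factors.

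The printed sites come from RefSeq promoters of GRCm38.p6, which were matched for 33 of the 41 genes and were searched over 250 bases before each start site. The E2F letters searched, on both strands, were TTTCCCGC, TTTCGCGC, TTTGGCGC and TTTGCCGC. A gene was counted if any of its listed promoters held a match. This was so for 8 of these 33 genes (24.2%), against 4.19% of 8614 tested genes and 2.16% of all 27025 genes with a promoter. The CCAAT letters of NF-Y were in 21 of the 33 (63.6%, against 40.7% of tested genes), and the E-box CACGTG in 5 (15.2%, against 10.1%). A match is a description of the letters and does not show that a factor was bound. The sites below carry the E2F letters in capitals, with 30 bases printed 5′ to 3′ on the strand that reads TTT first, so that the shared core can be compared. They are ordered by role.
Orc1, chr4:108579416-108579445, minus strand: aggagaaaactTTTCGCGCcactaaccgaa
Cdc6, chr11:98908002-98908031, minus strand: accccaggcgaTTTCCCGCtctccaccggc
Mcm5, chr8:75109347-75109376, plus strand: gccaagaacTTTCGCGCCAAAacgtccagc
Mcm6, chr1:128359795-128359824, minus strand: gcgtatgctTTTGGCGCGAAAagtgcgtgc
Mcm6, chr1:128359734-128359763, minus strand: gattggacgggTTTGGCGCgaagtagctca
Mcm7, chr5:138172030-138172059, plus strand: tggacaccctgTTTCCCGCggttcgaaatt
Gins3, chr8:95633507-95633536, minus strand: ttcaaactcgcTTTCCCGCgccgcactcgc
Pola1, chrX:93632275-93632304, plus strand: gcgggagtgcaTTTGGCGCcctgtgatgac
Rfc3, chr5:151651209-151651238, minus strand: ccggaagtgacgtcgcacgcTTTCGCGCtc
The Mcm5 site and the upstream Mcm6 site each hold 2 overlapping matches, TTTCGCGC on one strand and TTTGGCGC on the other. The distances from the RefSeq start site to the first base of each match were 27 bases in Orc1, 138 in Cdc6, 153 in Mcm5, 110 and 47 in Mcm6, 165 in Mcm7, 41 in Gins3, 138 in Pola1 and 10 in Rfc3. The sites of Orc1, Cdc6, Mcm7, Gins3 and Rfc3 lay wholly or partly inside the gene as GENCODE M21 annotates it, because a transcript there starts further upstream. Those of Mcm5, Mcm6 and Pola1 lay outside it. Mcm6 had the most matches, 3, and they stood in the 120 bases directly upstream of its RefSeq start (GRCm38.p6, chr1:128359706-128359825, minus strand), printed to show their spacing on the gene's strand.
Mcm6 promoter: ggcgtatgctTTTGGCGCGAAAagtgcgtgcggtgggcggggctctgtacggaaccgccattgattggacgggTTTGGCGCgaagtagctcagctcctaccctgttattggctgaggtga

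TGFβ-treated cells had slightly lower levels of most replication genes. The log2 fold change (OVA-T4 + TGFβ over OVA-T4) was negative for 39 of the 41 genes, with a median of -0.18, equal to -11.6%, and a range of -0.57 (Orc1) to 0.04 (Cdc7). The median over all 12879 genes tested was 0.08, so the replication genes lay 0.25 below it on the log2 scale (-0.25). Their median was -0.10 without TGFβ replicate 4, against 0.08 over all genes. It was -0.28 with median of ratios scaling, where the median over all genes moved as well, to -0.02. With quantile normalization it was -0.14, against -0.03 over all genes, so the distance to all genes was smaller there. No replication gene changed by 1.5-fold or more. In bulk RNA, fewer cells copying DNA and less RNA of these genes per cell cannot be told apart. The histogram of fold changes sets the 41 genes against all genes tested.

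**Figure D1:**
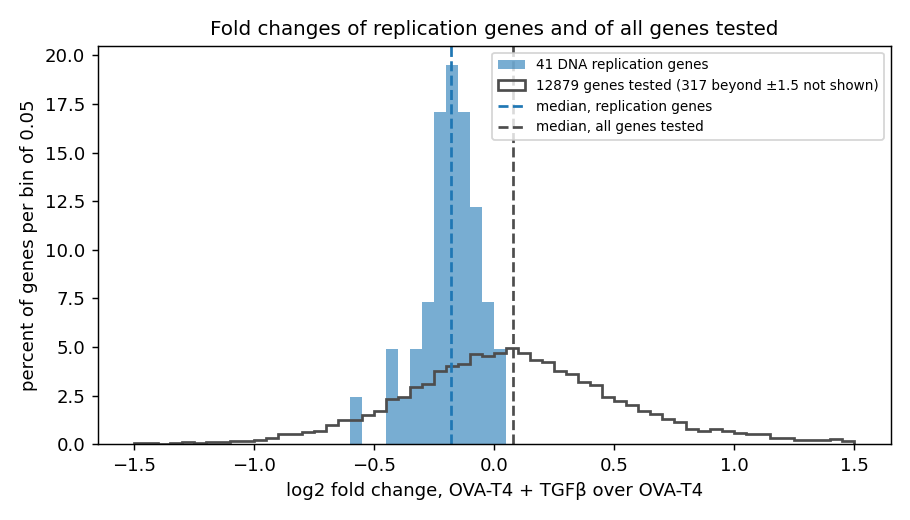
Percent of genes (vertical axis) in each bin of log2 fold change of OVA-T4 + TGFβ over OVA-T4 (horizontal axis), for the 41 DNA replication genes (filled) and all 12879 genes tested (outline), with the medians as dashed lines. The replication genes lie in a narrow range with a median of -0.18, left of the median of 0.08 for all genes, and 317 genes beyond the ends of the axis are not drawn.

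How many of these differences passed the test depended on whether the libraries were paired by replicate number. The labels state no pairing, and the correlations between libraries did not single out these pairs. Compared as 4 against 4 libraries by limma on log2(FPKM + 0.5), with Benjamini-Hochberg adjusted p under 0.05 over all genes, 7 of the 41 fell (Orc1, Pold2, Mcm10, Mcm7, Mcm3, Mcm2 and Pold1) and 0 rose. Among all genes, 20.2% fell and 30.7% rose in this unpaired fit, so the share of replication genes that fell was near the background of this fit. At an unadjusted p under 0.05 the counts were 15 lower and 0 higher. When the same limma model held the replicate number as a block, 22 of the 41 fell and 0 rose, against 25.4% of all genes that fell and 35.5% that rose. At an unadjusted p under 0.05 the paired fit had 24 lower and 0 higher. The 22 were the same 7 and Gmnn, Cdt1, Orc6, Mcm5, Mcm6, Gins1, Dbf4, Pola1, Pola2, Prim2, Rfc1, Rfc4, Rfc5, Pcna and Rpa2. limma voom on the whole reads behind the FPKM values, an alternative to the log2 FPKM fit, gave 9 lower unpaired and 24 lower paired, with 0 higher in both, against 20.4% and 25.7% of all genes lower. The libraries with TGFβ lay wholly below those without it for 9 of the 41 genes and wholly above for 0, against 18.9% of all genes wholly below.

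The 7 unpaired calls rested on different libraries. Orc1, Pold2, Mcm2 and Mcm3 fell whichever of the 8 libraries was left out, while Mcm10 passed in 5 of these 8 fits, and Mcm7 and Pold1 in 3 each. Under quantile normalization Mcm2, Mcm3, Mcm7 and Pold1 did not pass unpaired, and under TPM scaling Mcm7 and Pold1 did not. The number of replication genes that fell unpaired was 4, 11 and 14 without TGFβ replicates 1, 2 and 3, and 4 and 11 without OVA-T4 replicates 2 and 4, against 17.4% to 19.8% of all genes when 1 library was left out. Of the 22 paired calls, 12 (Orc1, Cdt1, Gmnn, Mcm7, Mcm10, Gins1, Dbf4, Pola2, Pold2, Pcna, Rfc4 and Rfc5) fell under all 4 scalings of the libraries and whichever replicate number was left out, and the other 10 lost the call in at least 1 of these fits. The paired count was 14 without number 1 and 14 without number 4. Median of ratios scaling gave 20 lower unpaired and 34 paired, against 26.9% and 33.2% of all genes. TPM scaling gave 5 and 14, against 17.6% and 22.2%, and quantile normalization 4 and 17, against 26.3% and 31.9%, with 0 replication genes higher in each. The place of the replication genes relative to the background thus depended on the scaling.

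The size of the difference varied from pair to pair. In the pairs numbered 1 and 4, all 41 genes were lower with TGFβ, with median log2 differences of -0.30 and -0.32. In pairs 2 and 3 the medians were -0.07 and -0.02, and 31 and 23 of the 41 genes were lower. Over all genes tested the share that was lower was 45.5% and 45.8% in pairs 1 and 4 and 41.9% in pair 3. Across the pairs, 21 genes were lower in all 4 (28.4% of all genes were), 12 in 3 and 8 in 2.

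**Figure D2:**
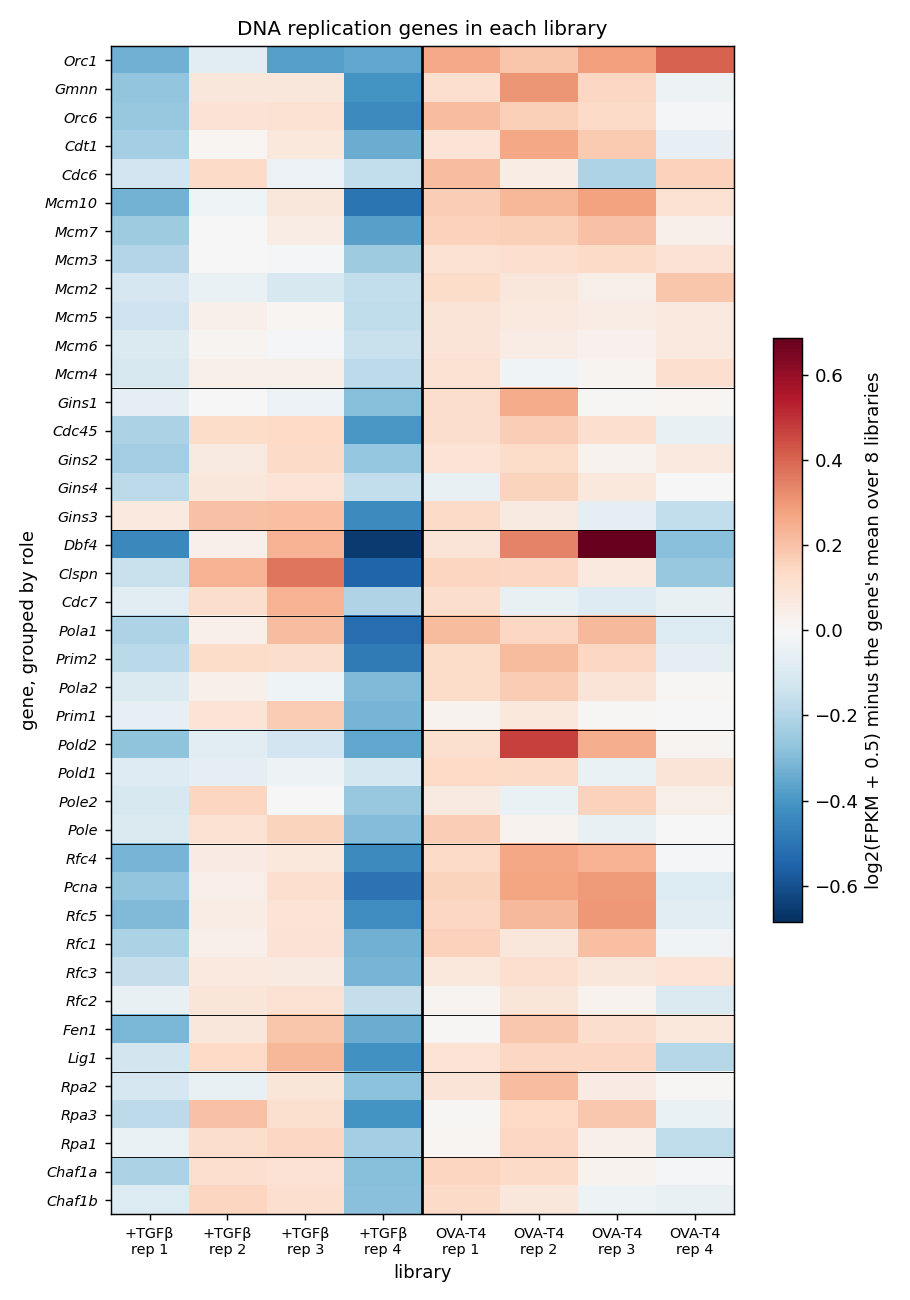
Each cell shows log2(FPKM + 0.5) in 1 library minus the gene's mean over the 8 libraries, for the 41 genes (rows, grouped by role and ordered by fold change) and the 8 libraries (columns, OVA-T4 + TGFβ on the left, OVA-T4 on the right), blue for lower and red for higher. Replicates 1 and 4 with TGFβ are blue for nearly all genes. Replicates 2 and 3 with TGFβ are closer to the OVA-T4 libraries for most genes, though not for Orc1 and Pold2.

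For most of these genes the spread was larger within the TGFβ group than within the OVA-T4 group. In replicates 2 and 3 with TGFβ, 41 and 40 of the 41 genes were above their group mean, against 3 in replicate 1 and 0 in replicate 4. Of all genes tested, 51.7%, 47.9%, 46.6% and 54.7% were above it in replicates 1 to 4 with TGFβ. Replicate 4 had the lowest value of the group in 39 of the 41. Among the OVA-T4 libraries, 26, 31, 23 and 7 genes were above the group mean in replicates 1 to 4, and replicate 4 was lowest in 26. The shares of all genes tested were 58.1%, 41.7%, 43.4% and 58.7% there. The replication genes thus moved together from library to library, most of all with TGFβ. The SD over 4 libraries on the log2 scale was larger with TGFβ for 37 of the 41 genes, against 43.2% of all genes tested, and its median was 0.20 with TGFβ and 0.09 without. A larger spread with TGFβ was not particular to the 41 genes. Outside them, Nasp had an SD of 19.1 FPKM with TGFβ and 13.3 FPKM without, while Dctpp1 had 13.1 and 24.3 FPKM. The replicate block reduced the median SE of the fold change to 0.061, against 0.098 without it.

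The summed level of the 41 genes was lowest in replicate 4 of both groups. It was 5212, 6086, 6186 and 4720 FPKM in replicates 1 to 4 with TGFβ, against 6446, 6702, 6567 and 5934 FPKM with OVA-T4 alone. The summed level of 16 mitosis markers, which peak when cells divide, was 618, 1037, 1435 and 357 FPKM with TGFβ, against 940, 1378, 1843 and 523 FPKM with OVA-T4 alone. In both groups replicate 3 had the highest and replicate 4 the lowest sum of mitosis markers, and every pair was lower with TGFβ.

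**Figure D3:**
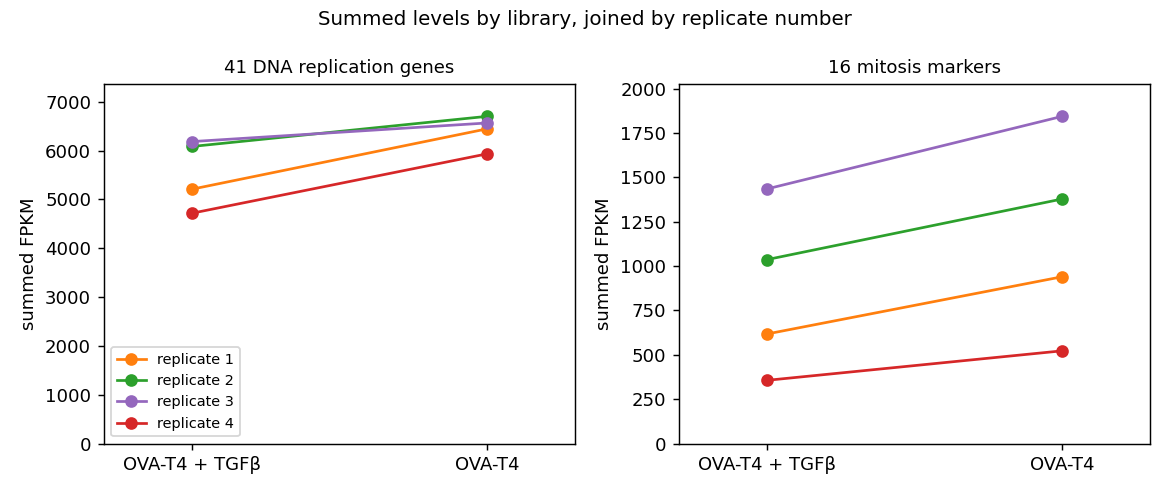
Summed FPKM of the 41 DNA replication genes (left panel) and of 16 mitosis markers (right panel) in each library, OVA-T4 + TGFβ left of OVA-T4, with lines joining libraries of the same replicate number. All lines run upward from OVA-T4 + TGFβ to OVA-T4, and the libraries numbered 1 and 4 are the lower ones in the TGFβ group of both panels.

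The libraries held 35586261 to 40040249 reads with TGFβ and 35839293 to 41597929 with OVA-T4 alone, solved from the FPKM values, and each replication gene had between 303 and 49088 reads in every library. The first principal component (64.7% of the variance) parted the groups, and the second (15.3%) parted numbers 1 and 4 from 2 and 3 in both. T cell genes matched the label, with 3529 to 3717 FPKM summed over 9 CD8 T cell markers with TGFβ and 2944 to 3267 without. The sum of 8 macrophage and monocyte markers was 43.4, 19.0, 11.7 and 36.4 FPKM in replicates 1 to 4 with TGFβ, against 13.0, 7.32, 4.93 and 13.2 FPKM with OVA-T4 alone. In both groups it was higher in replicates 1 and 4, where the summed level of replication genes was lower. The orders did not match, since with TGFβ the markers were highest in replicate 1 and the replication genes lowest in replicate 4. With OVA-T4 alone, 26 of the 41 replication genes were above the group mean in replicate 1. The 8 dendritic cell markers summed to 31.4 to 48.8 FPKM with TGFβ and 14.0 to 31.1 without, and the 8 B cell markers to 10.3 to 12.3 and 3.87 to 5.25 FPKM, with Ms4a1 at 0 in all libraries. The part of these other cells in the results was not tested.

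Some levels are shared with other sequences, and the sources used here do not state whether reads were counted by strand. Over 50% of the exon bases of Gins2 (67.3%, with Gse1) and Chaf1a (52.5%, with Ubxn6) lie in a gene on the opposite strand, which makes their values uncertain. Near-identical copies covered 72.8% of the Mcm7 transcript, 71.2% of Mcm4, 54.2% of Rpa3, 51.4% of Pcna and 43.5% of Gmnn. The copies of Mcm4 and Gmnn were listed at 0 FPKM in all libraries, the Rpa3 copy at up to 1.41 FPKM and the Pcna copy at up to 4.81 FPKM. No level was found under the name of the Mcm7 copy, Gm5487. The gene lengths behind the FPKM values were 19.2% to 101% of the annotated exon bases, so levels of different genes compare only on that scale.

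**Figure D4:**
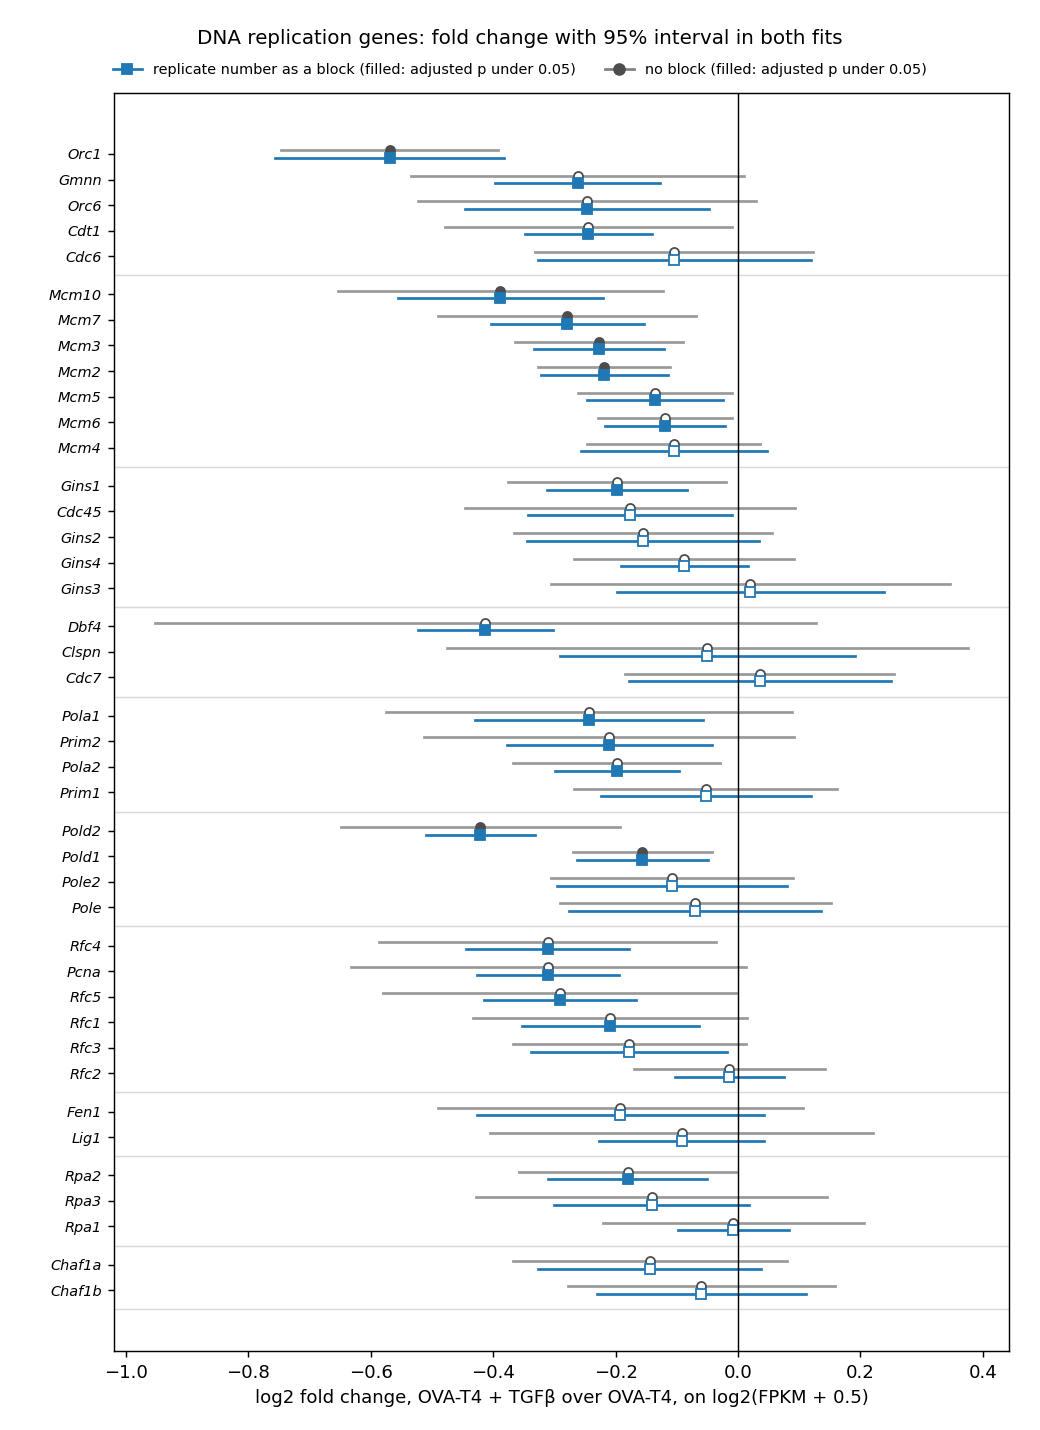
log2 fold change of OVA-T4 + TGFβ over OVA-T4 (horizontal axis) with its 95% interval for the 41 genes (rows, grouped by role), from limma with the replicate number as a block (squares) and without it (circles). Filled symbols have an adjusted p under 0.05, which holds for 22 squares and 7 circles, all left of 0.

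Origin licensing held the largest change. Orc1, an ATPase subunit of the origin recognition complex, had 25.2, 30.2, 24.4 and 24.8 FPKM in replicates 1 to 4 with TGFβ, against 38.2, 36.4, 38.8 and 42.4 FPKM with OVA-T4 alone. The groups did not overlap, and the log2 fold change was -0.57 ± 0.08 (SE), or -32.6% (limma, adjusted p = 0.000332 unpaired and 0.000693 paired). Cdt1, which brings the helicase to origins, had 65.4, 77.5, 80.8 and 60.6 FPKM with TGFβ and 82.1, 92.6, 87.2 and 73.9 FPKM with OVA-T4 alone. Geminin (Gmnn), the inhibitor of Cdt1, had 128, 163, 163 and 116 FPKM with TGFβ and 167, 191, 170.4 and 151 FPKM without. Both were lower in all 4 pairs although the groups overlapped, with log2 fold changes of -0.24 and -0.26, and both fell in the paired fit only (limma, adjusted p = 0.00249 and 0.00594 paired, 0.0766 and 0.0985 unpaired). Orc6, the smallest origin recognition subunit, had 34.2, 44.0, 44.3 and 30.3 FPKM with TGFβ, against 47.7, 46.1, 45.1 and 40.7 FPKM without, a log2 fold change of -0.25 (adjusted p = 0.0376 paired, 0.121 unpaired). Cdc6, which loads the helicase together with the origin recognition complex, changed least of the 5, with 36.8, 44.1, 39.1 and 35.7 FPKM with TGFβ, against 46.7, 41.7, 34.8 and 44.9 FPKM with OVA-T4 alone. Its groups overlapped, it was lower in 2 of 4 pairs, and its log2 fold change of -0.10 (95% interval -0.33 to 0.12) did not pass either fit.

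Of the 7 helicase genes, 4 fell unpaired and 6 paired. These counts were 7 and 7 with median of ratios scaling, 3 and 4 with TPM scaling, and 1 and 2 with quantile normalization. Mcm10, a factor needed to activate the loaded helicase, had 58.4, 71.7, 77.5 and 51.6 FPKM with TGFβ, against 82.6, 85.9, 88.7 and 78.8 FPKM with OVA-T4 alone, a change of -0.39 ± 0.12 on the log2 scale (limma, adjusted p = 0.0211 unpaired, 0.00259 paired). The groups did not overlap, and replicates 1 and 4 with TGFβ were the lowest. Of the ring subunits, Mcm7 averaged 536 ± 73.5 FPKM with TGFβ and 647 ± 32.1 FPKM without (SD, n = 4 each), with a log2 fold change of -0.28 ± 0.09. Mcm3 averaged 324 ± 27.8 FPKM with TGFβ and 378 ± 3.9 FPKM without, a log2 fold change of -0.23 ± 0.06. Mcm2 averaged 348 ± 12.4 FPKM with TGFβ and 405 ± 18.3 FPKM without, a log2 fold change of -0.22 ± 0.05. These 3 subunits fell in both fits (limma, adjusted p from 0.00442 to 0.032 unpaired and from 0.0031 to 0.00403 paired), but under quantile normalization Mcm2 and Mcm3 passed neither fit, and Mcm7 passed only paired under quantile normalization and TPM scaling. Mcm5 had 176, 199, 197 and 172 FPKM with TGFβ, against 207, 204, 201 and 204 FPKM without, a log2 fold change of -0.14. Mcm6 had 371, 402, 394 and 357 FPKM with TGFβ, against 422, 411, 405 and 416 FPKM without, a log2 fold change of -0.12. For both, every library with TGFβ was below every library without it, yet they passed only in the paired fit (adjusted p = 0.0406 and 0.0406, against 0.0678 and 0.0654 unpaired). Under quantile normalization the direction of Mcm6 turned (0.02). Mcm4 had 129, 143, 143 and 123 FPKM with TGFβ, against 149, 137, 141 and 151 FPKM without, and its log2 fold change of -0.10 did not pass (adjusted p = 0.191 unpaired, 0.196 paired). The 6 ring subunits, which act in equal numbers, thus had log2 fold changes between -0.28 and -0.10.

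Of Cdc45 and the 4 GINS genes, whose products join the ring to form the active helicase, 0 passed unpaired (1 at an unadjusted p under 0.05) and 1 fell in the paired fit. This was Gins1, with 76.8, 80.0, 78.1 and 65.5 FPKM with TGFβ, against 87.1, 95.8, 80.8 and 80.9 FPKM with OVA-T4 alone, which did not overlap, and a log2 fold change of -0.20 (limma, adjusted p = 0.00989 paired, 0.0632 unpaired). Cdc45 averaged 74.9 ± 13.5 FPKM with TGFβ and 83.8 ± 5.46 FPKM without, a log2 fold change of -0.18. Gins2 averaged 27.5 ± 3.92 FPKM with TGFβ and 30.4 ± 0.904 FPKM without, a log2 fold change of -0.16. Gins4 averaged 49.5 ± 5.21 FPKM with TGFβ and 52.5 ± 3.21 FPKM without, a log2 fold change of -0.09. Gins3 had 12.0, 13.2, 13.3 and 8.33 FPKM with TGFβ, against 12.6, 12.0, 10.9 and 10.1 FPKM without. Its log2 fold change of 0.02 (95% interval -0.31 to 0.35) was the only positive value among these genes. The interval covered the fold changes of the others, and a difference between them was not tested. For Gins3, replicate 4 with TGFβ was the lowest of all 8 libraries while replicates 2 and 3 with TGFβ were the highest. Its direction turned under median of ratios scaling (-0.08) and quantile normalization (-0.13).

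The firing kinase showed the widest gap between both fits. Dbf4, the subunit that activates Cdc7, had 34.0, 47.4, 54.8 and 29.3 FPKM with TGFβ, against 49.2, 58.8, 74.9 and 37.9 FPKM with OVA-T4 alone. The groups overlapped widely, each library followed its number (3 highest, 4 lowest in both groups), and Dbf4 was lower with TGFβ in 4 of 4 pairs. Its log2 fold change of -0.41 had an SE of 0.24 unpaired (adjusted p = 0.179) and of 0.05 paired (adjusted p = 0.000254, both limma). Cdc7, the catalytic subunit, had 35.9, 41.1, 44.6 and 32.7 FPKM with TGFβ, against 41.2, 36.5, 35.5 and 36.5 FPKM without, and a log2 fold change of 0.04 (95% interval -0.18 to 0.25). It was lower in 2 of 4 pairs and passed neither fit, and its direction turned under median of ratios scaling (-0.07). Clspn, which links stalled forks to the checkpoint kinase Chk1, averaged 105 ± 28.5 FPKM with TGFβ and 106 ± 13.3 FPKM without, with a log2 fold change of -0.05 that passed neither fit (adjusted p = 0.693 paired).

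**Figure D5:**
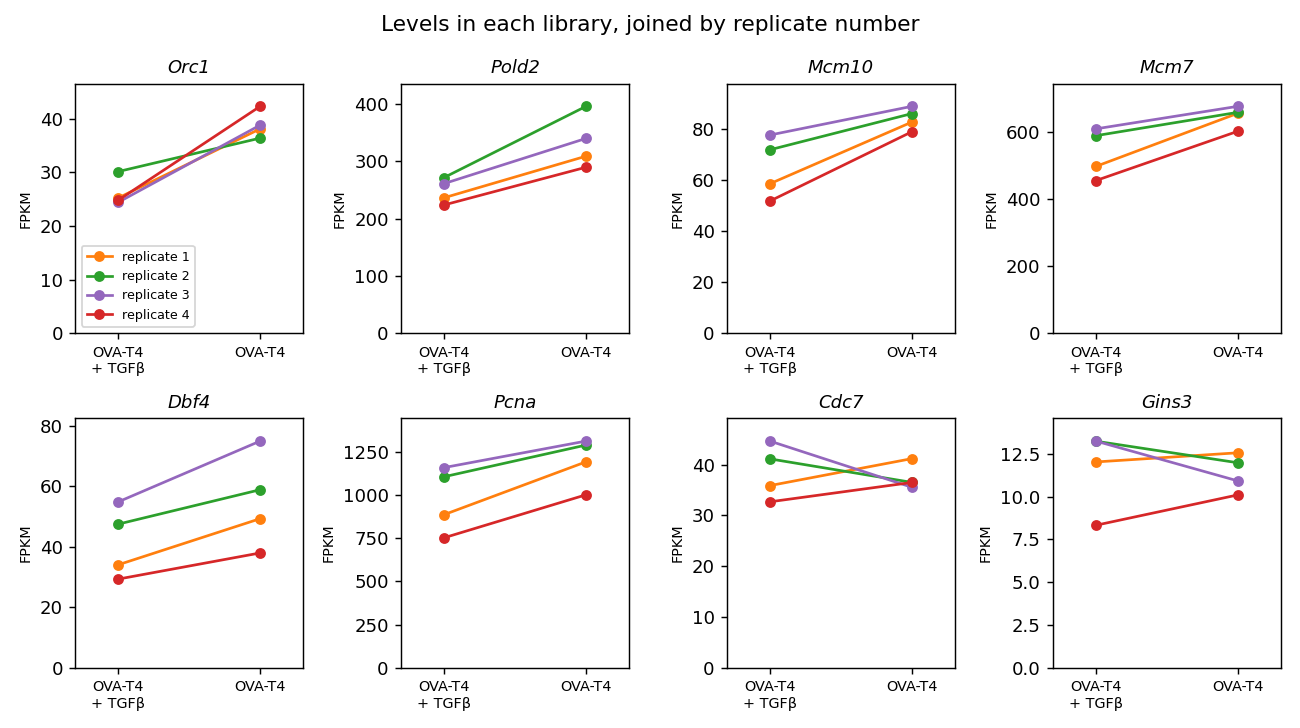
FPKM of 8 genes in each library, OVA-T4 + TGFβ left of OVA-T4, with lines joining libraries of the same replicate number. For Orc1, Pold2 and Mcm10 the groups do not overlap, for Mcm7, Dbf4 and Pcna they overlap while all 4 lines run upward to OVA-T4, and for Cdc7 and Gins3 the lines run both ways.

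Among the genes of primase and polymerase alpha, which lay down the primers, 0 of 4 passed unpaired (1 at an unadjusted p under 0.05), and 3 fell in the paired fit. The catalytic polymerase Pola1 had 46.2, 55, 62.0 and 37.2 FPKM with TGFβ, against 62.3, 59.2, 62.5 and 50.2 FPKM with OVA-T4 alone. Its log2 fold change was -0.24, and the groups overlapped because of replicate 3 with TGFβ and replicate 4 without (limma, adjusted p = 0.0306 paired, 0.195 unpaired). The accessory subunit Pola2 had 64.4, 70.6, 67.6 and 55.9 FPKM with TGFβ, against 75.5, 78.0, 73.3 and 69.3 FPKM without, a log2 fold change of -0.20 (adjusted p = 0.00586 paired, 0.0517 unpaired). Prim2, the larger primase subunit, had 34.8, 43.4, 43.2 and 28.2 FPKM with TGFβ, against 43.4, 46.2, 43.9 and 37.8 FPKM without, a log2 fold change of -0.21 (adjusted p = 0.0357 paired, 0.218 unpaired). All 3 were lower in every pair. The catalytic primase Prim1 had 92.0, 102, 108 and 76.6 FPKM with TGFβ, against 97.1, 101, 96.2 and 95.5 FPKM without, with a log2 fold change of -0.05 (95% interval -0.27 to 0.16) and only replicates 1 and 4 lower than their partners.

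The 2 delta polymerase genes among the 41 fell in both fits and the 2 epsilon genes among them in neither. This split holds only for the listed subunits. Outside the 41, the delta gene Pold4 rose and the epsilon gene Pole3 fell in both fits, as given below. Pold2, an accessory subunit of the lagging-strand polymerase delta, had 236, 272, 261 and 224 FPKM with TGFβ, against 309, 396, 340.2 and 289.8 FPKM with OVA-T4 alone. No library overlapped, and its log2 fold change of -0.42 ± 0.10, or -25.3%, was the second in size of the 41 (limma, adjusted p = 0.00703 unpaired, 8.32e-05 paired). The catalytic subunit Pold1 had 167, 170.1, 174 and 163 FPKM with TGFβ, against 196, 195, 173 and 189 FPKM without. It was lower in 3 of 4 pairs, with a log2 fold change of -0.16 (adjusted p = 0.0273 unpaired, 0.021 paired), and passed neither fit under TPM scaling or quantile normalization. Pole, the catalytic subunit of the leading-strand polymerase epsilon, had 74.8, 86.0, 89.0 and 65.1 FPKM with TGFβ, against 90.1, 81.3, 77.2 and 80.0 FPKM without, a log2 fold change of -0.07 (95% interval -0.29 to 0.15). Its accessory subunit Pole2 averaged 25.8 ± 3.13 FPKM with TGFβ and 27.8 ± 1.60 FPKM without, a log2 fold change of -0.11 (adjusted p = 0.271 paired). The libraries of both epsilon genes overlapped. Of the differences between the 2 polymerases, only the ratio of Pole to Pold1 is tested below.

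Pcna, the ring that holds polymerases on DNA, had the highest level of the 41 genes, on the FPKM scale. It had 887, 1107, 1159.6 and 753 FPKM with TGFβ, against 1193, 1290.3, 1313 and 1002 FPKM with OVA-T4 alone. Replicate 3 was highest and replicate 4 lowest in both groups, and each pair was lower with TGFβ, so that its log2 fold change of -0.31 passed paired (limma, adjusted p = 0.00127) and not unpaired (adjusted p = 0.0988). Of the clamp loader, which opens Pcna around primed DNA, Rfc4 had 71.4, 92.8, 93.8 and 65.8 FPKM with TGFβ, against 97.7, 107, 105 and 88.3 FPKM without, a log2 fold change of -0.31. Rfc5 had 62.9, 80.4, 82.9 and 57.7 FPKM with TGFβ, against 85.7, 90.5, 95.4 and 73.8 FPKM without, a log2 fold change of -0.29. Rfc1, the largest loader subunit, had 52.7, 62.9, 65.8 and 48.7 FPKM with TGFβ, against 68.5, 64.8, 71.0 and 60.4 FPKM without, a log2 fold change of -0.21. These 3 loader genes were lower in all 4 pairs and fell in the paired fit only (adjusted p = 0.00255, 0.00247 and 0.0212 paired, 0.0589, 0.0849 and 0.109 unpaired). Rfc3 averaged 71.2 ± 9.12 FPKM with TGFβ and 80.2 ± 1.05 FPKM without, with no overlap and a log2 fold change of -0.18 that passed neither fit (adjusted p = 0.0554 paired, 0.108 unpaired). Rfc2 had 111, 122, 124 and 103 FPKM with TGFβ, against 117, 122, 117 and 108 FPKM without, and a log2 fold change of -0.01 (95% interval -0.10 to 0.08 paired), the smallest difference among the loader genes, which turned under TPM scaling (0.02).

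Behind the fork, 1 of 7 genes passed, in the paired fit only, and 0 passed unpaired (1 at an unadjusted p under 0.05). This was Rpa2, a subunit of the RPA complex that coats single-stranded DNA, with 153, 160.1, 176 and 136 FPKM with TGFβ, against 176, 192, 172 and 167 FPKM with OVA-T4 alone, and a log2 fold change of -0.18 (limma, adjusted p = 0.0248 paired, 0.0837 unpaired). Rpa1, the largest RPA subunit, had 155, 175, 177 and 136 FPKM with TGFβ, against 162, 177, 164 and 142 FPKM without, a log2 fold change of -0.01 (95% interval -0.10 to 0.08 paired), which turned under TPM scaling (0.03). Rpa3 averaged 77.2 ± 14.7 FPKM with TGFβ and 84.2 ± 6.36 FPKM without, a log2 fold change of -0.14 that passed neither fit. The subunits of this trimer thus differed in whether they passed, and a difference between them was not tested. Lig1, the ligase that joins Okazaki fragments, had 170.4, 205, 218 and 139.7 FPKM with TGFβ, against 199, 206, 206 and 162 FPKM without, a log2 fold change of -0.09 (95% interval -0.41 to 0.22). Fen1, the nuclease that trims their flaps, was listed at 3.84, 5.20, 5.65 and 3.77 FPKM with TGFβ, against 4.92, 5.64, 5.38 and 5.17 FPKM without, a log2 fold change of -0.19. The value of Fen1 is uncertain because 84.2% of its exon bases lie in genes on the opposite strand, among them Tmem258. Chaf1a, the large subunit of the CAF-1 histone chaperone, had 33.3, 42.0, 41.5 and 31.5 FPKM with TGFβ, against 42.8, 42.3, 39.4 and 38.4 FPKM without, a log2 fold change of -0.14. Its partner Chaf1b had 72.9, 86.2, 84.3 and 63.6 FPKM with TGFβ, against 85.3, 82.0, 75.9 and 74.9 FPKM without, a log2 fold change of -0.06. Both CAF-1 genes overlapped between groups, and neither passed.

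A ratio of partner genes within a library cancels a factor that scales the whole library, though not quantile normalization, and 5 ratios were compared by a two-sided exact permutation test over the 8 libraries, whose smallest possible p is 0.0286. The ratio of Cdt1 to its inhibitor Gmnn was 0.512, 0.476, 0.497 and 0.524 in replicates 1 to 4 with TGFβ, against 0.493, 0.487, 0.513 and 0.491 with OVA-T4 alone (log2 difference of 0.02, exact p = 0.657), and the groups overlapped. The ratio of Dbf4 to Cdc7 was 0.949, 1.15, 1.22 and 0.898 with TGFβ, against 1.19, 1.60, 2.09 and 1.04 with OVA-T4 alone. It was lower in 4 of 4 pairs, with a log2 difference of -0.45, and the groups overlapped (exact p = 0.143, adjusted over the 5 ratios 0.238). The ratio of Chaf1a to Chaf1b was 0.460 to 0.50 with TGFβ and 0.505 to 0.522 without, lower in 4 of 4 pairs, a log2 difference of -0.08 (exact p = 0.0286, adjusted 0.143). The ratio of Rfc1 to Rfc2 was 0.476 to 0.533 with TGFβ and 0.532 to 0.609 without, also lower in 4 of 4 pairs, a log2 difference of -0.20 (exact p = 0.0571, adjusted 0.143). That of Pole to Pold1 was 0.400 to 0.514 with TGFβ and 0.419 to 0.462 without, lower in 2 of 4 pairs, a log2 difference of 0.09 (exact p = 0.4, adjusted 0.5). No ratio passed after adjustment over the 5. The ratio of Chaf1a to Chaf1b had the smallest possible exact p, with no overlap, and still did not pass. The adjusted permutation test thus cannot decide on a single ratio. The sign-flip test of 4 pairs, whose smallest p is 0.125, could not reach the threshold either.

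Other genes of the same processes were taken from lists kept whole, and their counts are to be set against the 20.2% of all genes that fell unpaired and the 25.4% that fell paired. Of 33 other replication genes, 8 fell and 3 rose unpaired, and 13 fell and 3 rose paired. Pold4, the smallest subunit of polymerase delta, rose while Pold1 and Pold2 fell, with 76.0, 61.3, 61.8 and 77.1 FPKM with TGFβ and 31.9, 28.2, 24.4 and 30.7 FPKM with OVA-T4 alone (log2 fold change of 1.25 ± 0.11, limma, adjusted p = 2.16e-05). Pole3, a histone-fold subunit of polymerase epsilon, had 42.0, 50.7, 47.8 and 40.9 FPKM with TGFβ and 62.0, 68.4, 71.8 and 61.5 FPKM without, a log2 fold change of -0.54 ± 0.08 (adjusted p = 0.000648). Neither gene overlapped between groups. Of 9 genes that supply or clean the deoxynucleotide pool, 2 fell unpaired and 7 paired, with 0 higher in both fits at an adjusted or unadjusted p under 0.05. Dctpp1, which breaks down dCTP, averaged 88.0 ± 13.1 FPKM with TGFβ and 158 ± 24.3 FPKM without, a log2 fold change of -0.84 (adjusted p = 0.000722).

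Of 18 E2F factors and partners, 5 fell and 3 rose unpaired, and 8 fell and 3 rose paired. Rbl2 (p130), a pocket protein that holds E2F targets silent in resting cells, had 51.6, 42.8, 44.8 and 50.2 FPKM with TGFβ and 28.9, 22.9, 22.3 and 27.1 FPKM without, a log2 fold change of 0.90 ± 0.10 (limma, adjusted p = 8.27e-05). The dimer partners of E2F went in opposite directions. Tfdp2 averaged 22.5 ± 2.44 FPKM with TGFβ and 15.4 ± 1.48 FPKM without, a log2 fold change of 0.54 (adjusted p = 0.00132). Tfdp1 averaged 158 ± 22.9 FPKM with TGFβ and 225 ± 17.0 FPKM without, a log2 fold change of -0.52 (adjusted p = 0.00264). Of 10 chromatin factors that act at forks, 5 fell unpaired and 6 paired, with 0 higher at an adjusted or unadjusted p under 0.05. They included the histone chaperone Nasp (log2 fold change of -0.37, adjusted p = 0.00718) and the FACT subunit Supt16 (-0.36, adjusted p = 0.0114). Of 12 replication stress genes, 4 fell and 2 rose in both fits. The helicase gene Fbxo18 had 39.7, 38.3, 40.1 and 38.1 FPKM with TGFβ and 22.1, 22.0, 21.6 and 23.4 FPKM without, a log2 fold change of 0.80 (adjusted p = 3.08e-06). The checkpoint clamp gene Hus1 averaged 13.1 ± 0.637 FPKM with TGFβ and 17.3 ± 1.39 FPKM without, a log2 fold change of -0.38 (adjusted p = 0.00199).

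Of the 16 mitosis markers, 0 passed in the unpaired limma fit, also at an unadjusted p under 0.05 and in voom, and 13 fell in the paired fit. Their median log2 fold change was -0.40, against -0.18 for the 41 replication genes. Leaving out 1 library moved the median of the mitosis markers to -0.01 without TGFβ replicate 4 and -0.71 without TGFβ replicate 3, and in the OVA-T4 group to -0.11 when replicate 3 was left out and -0.77 when replicate 4 was. A difference between the medians of both lists was not tested. Their sum ran in the same order of replicate numbers in both groups, 3, 2, 1 and 4 from high to low, as Dbf4 and Pcna did.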

How the data were processed

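Poly(A) RNA of 8 libraries was sequenced. The authors deposited one table of FPKM values (fragments per kilobase of gene, scaled to the fragments of the library). CASAVA, HISAT2, HTSeq and build mm10 stand in the submitters' processing notes, and their versions were not given in the sources used here. An FPKM value is a share of its library. For RNA isolation the labels name an RNeasy kit and the study's methods a Direct-zol kit.

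limma 3.58.1 (R 4.3.3) with a trended prior was fitted to log2(FPKM + 0.5) of the 12879 genes whose mean FPKM was 0.5 or more. Tests were two-sided, with Benjamini-Hochberg adjustment over these genes. The scale slightly understates changes of low genes. The script was tested on simulated data. Whole reads were solved for 100% of the 23842 genes above 0 (tolerance 0.005 reads) and gave the depth and the input of voom. The deviations of a library from its group mean correlated across genes with those of the library of the same number in the other group (r = 0.179, 0.205, 0.419 and 0.505 for numbers 1 to 4), and at -0.489 to 0.254 between different numbers. Replicate 1 with TGFβ correlated more with OVA-T4 replicate 4 (r = 0.246) than with OVA-T4 replicate 1. Replicate 2 with TGFβ correlated more with OVA-T4 replicate 3 (r = 0.239) than with OVA-T4 replicate 2. The correlations thus set numbers 1 and 4 apart from 2 and 3 and did not single out the 4 pairs. Treating the numbers as pairs was a choice, since the labels state no pairing and the correlations do not settle it. Alternatives were other pseudocounts, filters, scalings, a robust prior, library weights, voom, the block and leaving out libraries.

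The 41 genes, the lists and the markers were chosen with earlier results of these data known. Per-library values are given for the largest and smallest change of each role, for genes of the 5 ratios and for genes whose call differed between fits. Of each other list the 2 largest changes that passed and the largest in the other direction are named. Pclaf was matched by its Ensembl ID, and Dbf4b of the other replication genes was not matched. Positions come from GENCODE M21 (GRCm38), promoters from RefSeq (GRCm38.p6), and copies from blastn 2.17.0 (at least 90% identity and 100 bases). Other steps were run in Python 3.11.15 (SciPy 1.17.1, pandas 2.3.3, numpy 2.4.6) and plots were drawn by matplotlib 3.10.9. Some single genes of these lists are not reported here by name.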

Additional observations from a re-analysis of the deposited data

Results flagged for a closer look

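Of 82 groups of 4 libraries (41 genes in 2 groups), 3 held a library far from the other 3 by Dixon's criterion, which chance alone meets in about 1 in 20 groups. Orc1 was highest in replicate 2 with TGFβ, at 30.2 FPKM against 24.4 to 25.2 FPKM in the other libraries with TGFβ. Cdc7 was highest in replicate 1 with OVA-T4 alone, at 41.2 FPKM against 35.5 to 36.5 FPKM in the others of that group. Lig1 was lowest in replicate 4 with OVA-T4 alone, at 162 FPKM against 199 to 206 FPKM in the others of that group.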

How the results depend on the processing

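The number of replication genes lower with TGFβ was 7 in the unpaired fit and stayed between 5 and 9 under other pseudocounts and filters, TPM scaling, the robust prior, library weights and voom on the solved reads. It was 20 with median of ratios scaling, 4 with quantile normalization, 22 with the replicate block and 24 with voom and the replicate block. In fits added after seeing the data, the replicate block gave 34 with median of ratios scaling, 14 with TPM scaling and 17 with quantile normalization. Leaving out 1 library, or both of a number in the block fit, gave 4 to 26. The number that rose was 0 in every fit. Over all genes, 4275 fell with the block and median of ratios scaling and 4112 with the block and quantile normalization, against 2607 in the main fit. The scaling also moved the balance of all calls, of which 60.3% were higher with TGFβ in the main fit, 47.5% with median of ratios scaling, 65.1% with TPM scaling and 47.0% with quantile normalization. The median over all genes was -0.03 with quantile normalization, against 0.08 in the main fit.

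Directions turned only for genes that passed neither fit, with the exception of Mcm6. Under median of ratios scaling, with or without the block, the log2 fold changes that turned were -0.0786 for Gins3 and -0.0668 for Cdc7. Under TPM scaling, with or without the block, they were 0.0237 for Rfc2 and 0.0301 for Rpa1. Under quantile normalization, with or without the block, they were 0.0185 for Mcm6, -0.131 for Gins3, 0.00723 for Clspn, 0.00359 for Prim1, 0.0664 for Rfc2 and 0.0790 for Rpa1, and with library weights 0.00551 for Rpa1. With single libraries left out, the ranges that crossed 0 were those of Gins3 (-0.0441 to 0.169), Cdc7 (-0.0374 to 0.111), Clspn (-0.181 to 0.125), Prim1 (-0.119 to 0.0444), Pole (-0.132 to 0.0171), Rfc2 (-0.0510 to 0.0391), Lig1 (-0.182 to 0.0310), Rpa1 (-0.0665 to 0.0686) and Chaf1b (-0.119 to 0.0265). In the block fit they were 0.0339 for Clspn, 0.00485 for Rfc2 and 0.00968 for Rpa1 without number 1, -0.0190 for Gins3 and -0.00966 for Cdc7 without number 2, -0.0620 for Gins3 and -0.0612 for Cdc7 without number 3 and 0.0309 for Clspn, 0.0351 for Prim1, 0.00508 for Pole, 0.00375 for Rfc2 and 0.00967 for Rpa1 without number 4. The log2 ratio of Cdt1 to Gmnn ranged over -0.00300 to 0.0432. No ratio passed after adjustment under any alternative run, which a single ratio at the smallest exact p could not do. Among the 41 genes the replicate block changed no call beyond the 15 given above. The cause of the differences between fits was not tested.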
